A study of Mus musculus with 4 samples.

Results

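The genes described here detect double-stranded RNA, signal through interferon and act as interferon-stimulated effectors. They were picked by symbol from the deposited table of read counts, and all 43 symbols were found among 35976 gene rows. The libraries came from mouse E14 embryonic stem cells (strain given as 12910la), kept on gelatin with 15% serum and 10 ng/ml LIF. In the 2 control libraries the genotype is given as wild type, and in the 2 knockdown libraries as knocked down. The knockdown used a short hairpin RNA, expressed from a pSuper puro vector, against the transcript Lx8-SINE B2. That name joins Lx8 to the SINE B2 repeat family. One treatment text covers all samples: 1000 ng of vector was transfected, and from 24 h the cells were selected for 3 days with puromycin at 1 µg/ml. The vector of the control cells is not stated, and puromycin selection acts on a pool of cells and not on 1 clone. The word batch stands in the knockdown titles alone, and an effect of that batch cannot be told apart from one of the hairpin. No row carried the name of the targeted RNA, so its level was not analysed here. Separate cultures are not named for the 2 libraries of either group, so a p-value here measures spread among libraries that may be technical.

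Cells read double-stranded RNA as a sign of viral infection. The helicases RIG-I and MDA5 pass the signal through MAVS to the kinase TBK1 and the factors IRF3 and IRF7, which switch on type I interferon genes. Secreted interferon binds IFNAR1 and IFNAR2, and a complex that includes STAT2 and IRF9 then induces the interferon-stimulated genes through a promoter element called ISRE. Pluripotent cells are known for a weak response of this kind, while transcripts of SINE repeats can fold into double-stranded RNA and are edited by ADAR.

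At the test's threshold 1 of these genes, Slfn9, fell and 0 rose, while more of them lay lower than higher in both knockdown libraries. Total counts per library were 16383323 to 19867689. Levels are CPM (counts divided by the library's total and rescaled) scaled between libraries by TMM. With edgeR's filter on low counts, 33 of the 43 genes were tested and 10 were too low to judge. The filter asks for 0.531 CPM in 2 libraries. Slfn8 passed it through the controls alone, and 5 low genes (Irf7, Isg20, Mx1, Slfn2 and Slfn5) reached that level in 2 or 3 of the 4 libraries. Called genes passed a Benjamini-Hochberg adjusted p of 0.05 in edgeR's quasi-likelihood test, adjusted over all 16209 genes tested. Over all genes 0.876% were called higher and 0.555% lower, together 1.43%. The median log2 fold change, knockdown over control, was -0.28 over the 33 genes and 0.01 over all tested genes. At an unadjusted p below 0.05, 1 gene was higher (Isg20) and 7 were lower (Irf1, Stat2, Oas3, Ifitm2, Bst2, Slfn8 and Slfn9), beside 11% and 8.58% of all genes, or 19.6% in either direction. Other tools called other numbers among the 33. DESeq2 called Oas3 and Slfn9 lower and 0 higher, and limma-voom called 0 in either direction. The likelihood ratio test of edgeR called Oas3, Slfn8 and Slfn9 lower and Isg20 higher. Over all 16209 genes these tools called 1107, 241 and 1310 genes, in that order. Both knockdown libraries lay below both controls in 14 of the 33 genes and above both in 6, and the groups overlapped in 13. Slfn8 is counted in the 14 and in the 7 above, and it enters the median. It passed the filter through the controls alone, so it could hardly enter as anything but lower. Over all tested genes the knockdown libraries lay below in 24.6% and above in 27.3%, and the groups were apart in 51.9%.

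**Figure D1:**
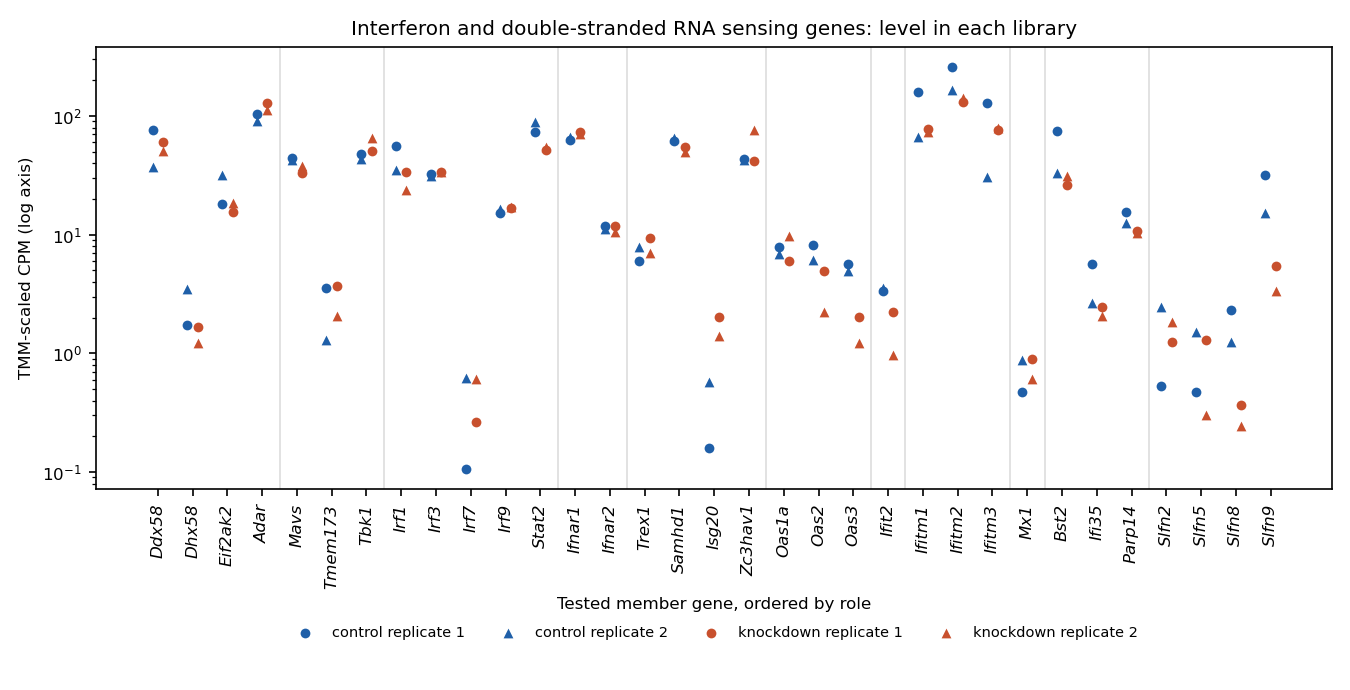
Level of each of the 33 tested genes in each library, as TMM-scaled CPM on a log axis, with circles and triangles for replicates 1 and 2. Slfn9 lies at 15.4 and 32.1 CPM in the controls and at 3.34 and 5.44 CPM in the knockdown libraries, and Ifitm3 spans 30.8 to 129 CPM within the controls.

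The libraries had the marker pattern of embryonic stem cells. Pou5f1, which encodes OCT4, was at 902 to 1256 CPM in all 4. The list of 8 stem cell markers summed to 7334 and 7087 CPM in the controls and to 5145 and 5787 CPM in the knockdown libraries. One of them was called: Tdgf1, a Nodal co-receptor gene, fell from 1133 and 1552 CPM to 571 and 602 CPM (edgeR adjusted p = 0.0438). Of 8 leukocyte and macrophage markers, Adgre1, Lyz2 and Tyrobp had 0 counts in all libraries, and Ptprc had 1 count in each knockdown library and 0 in the controls. Cd68, a lysosomal protein gene, made up most of the list's level, at 16.8 and 11.3 CPM against 17.0 and 34.4 CPM. Cd74 was at 5.23 and 5.39 CPM against 2.67 and 3.04 CPM. The summed level of all 8 leukocyte markers was 23.9 and 18.4 CPM in the controls and 20.7 and 39.0 CPM after knockdown. Of 7 endoderm markers 6 were tested and 0 were called. In both knockdown libraries 5 were higher (Gata6, Gata4, Sox17, Sox7 and Pdgfra), or 83.3% of those tested, beside 27.3% of all tested genes. The 7 endoderm markers summed to 12.7 and 18.4 CPM in the controls against 40.5 and 29.7 CPM. The 8 fibroblast markers summed to 25.0 and 33.1 CPM against 11.0 and 11.8 CPM, with Postn and Lum at 0 counts. The 7 trophectoderm markers summed to 67.2 and 75.0 CPM against 59.7 and 102 CPM. Of the 5 tested, 4 overlapped between groups. Gata3 was apart, at 0.48 and 0.47 CPM against 3.14 and 2.80 CPM, and was not called (edgeR adjusted p = 0.0527). Cdx2, too low to be tested, had 1 and 2 counts against 9 and 5. The summed stem cell and fibroblast markers thus lay lower in both knockdown libraries and the summed endoderm markers higher. Few genes carried the stem cell and fibroblast sums. Dppa5a and Tdgf1 were the 2 stem cell markers apart between groups, with the other 6 overlapping. Thy1 and Pdgfrb were the 2 such fibroblast markers. What part any of the marker lists has in the values below was not tested. In bulk RNA, fewer cells of a type and less RNA per cell cannot be told apart.

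Expression of the pathway in these cells was uneven. At 10 CPM or more in every library stood 18 of the 43 genes, and 12 stayed under 1 CPM in every library. Between genes, levels were compared per kilobase of exon. On that scale the small membrane proteins of the IFITM family led, with control means of 323 ± 101 CPM per kb for Ifitm2, 118 ± 102 for Ifitm3 and 103 ± 59.4 for Ifitm1 (SD, n = 2). Bst2 followed at 59.6 ± 32.2 CPM per kb. Ifitm3, Ifitm1 and Bst2 overlap within their spreads, so the order of these 3 is not fixed by these libraries. A group of signalling genes came next within a narrow band, among them Stat2 (13.6 ± 1.82), Mavs (13.1 ± 0.37), Adar (11.96 ± 1.12), Tbk1 (11.7 ± 0.86), Irf1 (11.5 ± 3.73) and Ifnar1 (10.9 ± 0.38 CPM per kb). Of the named steps of signalling, Ifih1 was at 0 counts and Irf7 under 1 CPM in every library.

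The 10 genes too low to judge include several that interferon strongly induces in other cells. Isg15, a ubiquitin-like protein joined to other proteins during the response, and Ifih1, the gene of the long double-stranded RNA sensor MDA5, had 0 counts in every library. A count of 0 allows up to 3 counts, or 0.156 to 0.182 CPM per library, for counting error only. Ifit3, whose product binds viral RNA with its relatives, had 2 counts in all. Mx2 had 8, Oasl2 10, Usp18 12, Ifit1 13, Tlr3 20, Ifi27 27 and Rsad2, which encodes viperin, 37 counts over the 4 libraries. Rsad2 was at 0.42 and 0.52 CPM in the controls and at 0.73 and 0.30 CPM in the knockdown libraries, which overlap. Ifit1 had 5 and 0 counts in the controls against 7 and 1. Both knockdown libraries were below both controls for Tlr3 (6 and 8 counts against 4 and 2) and Oasl2 (3 and 5 against 0 and 2). They were above for Ifi27 (6 and 3 against 8 and 10), and the other 7 genes overlapped or were at 0. None of the 10 was tested. The interferon genes Ifnb1, Ifna4 and Ifne also had 0 counts in all 4 libraries.

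Of 6 genes that sense or edit RNA, 4 were tested and 0 were called in edgeR's quasi-likelihood test, with Ifih1 at 0 and Tlr3 too low to judge. Ddx58, which encodes RIG-I, was at 75.7 and 37.0 CPM in the controls and at 60.5 and 51.1 CPM in the knockdown libraries, so both knockdown values lay between the controls. Its log2 fold change was -0.01, with a 95% interval from -0.75 to 0.72. Dhx58, which encodes LGP2, a regulator of the other helicases, was at 1.74 and 3.48 CPM against 1.67 and 1.22 CPM. The fitted difference was -0.85 on the log2 scale (SE 0.53). Eif2ak2 encodes PKR, the kinase that halts translation on binding double-stranded RNA. It was at 18.2 and 32.1 CPM in the controls and at 15.6 and 18.4 CPM in the knockdown libraries, and control replicate 2 stood above the other 3. Adar, the editing enzyme that marks cellular double-stranded RNA as self, was at 103 and 90.6 CPM against 128 and 112 CPM. Both knockdown libraries were higher, by a log2 fold change of 0.31 (95% interval -0.10 to 0.71), and the edgeR adjusted p was 0.389. Exons of Adar overlap those of Chrnb2 on the other strand over 16.8% of their length, so without strand some reads could belong to either gene.

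Adaptors, the kinase and the receptor subunits gave no call. Mavs, the mitochondrial adaptor of both helicases, was at 44.7 and 42.95 CPM in the controls and at 32.9 and 38.3 CPM in the knockdown libraries. Its log2 fold change was -0.30 (95% interval -0.76 to 0.16). Tbk1 was at 48.2 and 43.4 CPM against 51.0 and 65.4 CPM, with a log2 fold change of 0.35 (95% interval -0.13 to 0.82). Tmem173, which encodes the DNA-pathway adaptor STING, was low at 3.54 and 1.30 CPM against 3.72 and 2.07 CPM, and the groups overlapped. Ifnar1 was at 63.3 and 66.5 CPM against 72.6 and 70.7 CPM, and Ifnar2 at 11.8 and 11.2 CPM against 11.9 and 10.5 CPM. The 95% interval of Ifnar1 runs from -0.26 to 0.55 and that of Ifnar2 from -0.70 to 0.62 on the log2 scale, so changes of the size seen for Slfn9 lie outside both.

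Among the transcription factors, Stat2 and Irf1 were lower in both knockdown libraries without being called. Stat2, the partner of IRF9 in the complex that binds the ISRE, was at 72.9 and 88.2 CPM in the controls and at 51.2 and 54.4 CPM in the knockdown libraries. The log2 fold change, -0.61 (SE 0.19), had an edgeR adjusted p of 0.134. Irf1, a factor that interferon itself induces, was at 56.1 and 35.1 CPM against 33.6 and 23.8 CPM. The lower control and the higher knockdown library almost met, and the log2 fold change was -0.67 (edgeR adjusted p = 0.252). Irf9 was at 15.1 and 16.6 CPM against 16.9 and 17.0 CPM, and Irf3, the factor that TBK1 activates, at 32.7 and 31.4 CPM against 33.7 and 34.0 CPM. Both knockdown libraries were above both controls for each gene, with log2 fold changes of 0.10 and 0.08 and edgeR adjusted p-values of 0.867 and 0.865. Irf7, which amplifies interferon production, had 2 and 12 counts in the controls against 5 and 10.

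Isg20 and other nuclease or restriction factor genes were not called. It encodes an exonuclease that degrades viral RNA and had 3 and 11 counts in the controls against 39 and 23. These are 0.16 and 0.57 CPM against 2.04 and 1.40 CPM, and both knockdown libraries lay above both controls. The log2 fold change was 2.22 with a 95% interval from 0.63 to 3.81, and the edgeR adjusted p was 0.134, so Isg20 was not called. Leaving out 1 library gave 1.58 (without control replicate 1) to 3.34 (without control replicate 2). Zc3hav1, which encodes the CpG-binding antiviral protein ZAP, was at 43.9 and 42.5 CPM in the controls and at 42.1 and 76.1 CPM in the knockdown libraries. One knockdown library, replicate 2, carries its log2 fold change of 0.45, which was -0.035 without it. Samhd1, a phosphohydrolase that depletes deoxynucleotides, was at 61.9 and 65.5 CPM against 55.04 and 49.3 CPM (log2 fold change -0.29, edgeR adjusted p = 0.431). Trex1, a DNA exonuclease gene, was at 6.02 and 7.89 CPM against 9.31 and 7.05 CPM. All exons of Trex1 overlap those of Atrip on the same strand, so its count is uncertain.

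The oligoadenylate synthetases, which make the signal that activates RNase L, differed among themselves, and 0 were called. Oas3 was at 5.65 and 4.98 CPM in the controls and at 2.04 and 1.22 CPM in the knockdown libraries, 3.24-fold lower in the fit. The groups were apart, at -1.70 on the log2 scale (SE 0.45), but the edgeR adjusted p was 0.0988. Oas2 was at 8.24 and 6.07 CPM against 4.92 and 2.25 CPM, or -0.99 on the log2 scale (edgeR adjusted p = 0.287). Leaving out single libraries gave -1.67 (without knockdown replicate 1) to -0.54 for Oas2. Oas1a was at 7.82 and 6.85 CPM against 5.96 and 9.73 CPM, and the knockdown libraries lay on either side of the controls. Of the 50-base stretches of its longest transcript, 57.6% also occur in Oas1g, so reads of Oas1a and Oas1g are hard to tell apart. Ifit2 was the single tested gene of its family and was at 3.38 and 3.58 CPM against 2.25 and 0.97 CPM. Its log2 fold change was -1.10 (edgeR adjusted p = 0.292). Without single libraries it ran from -1.84 (without knockdown replicate 1) to -0.63.

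The IFITM proteins, which block the fusion of enveloped viruses and of which Ifitm1 and Ifitm3 are also known from early germ cells, depended on the control library. Ifitm3 was at 129 CPM in control replicate 1 and at 30.8 CPM in control replicate 2, while the knockdown libraries stood close together at 75.9 and 79.5 CPM. Its log2 fold change was -0.04 with a 95% interval from -1.25 to 1.17. Without control replicate 1 Ifitm3 was called higher at 1.33 (edgeR adjusted p = 0.0214), and without control replicate 2 it was at -0.78. In such fits, here and below, the lone control library is assumed to vary like the knockdown libraries. Ifitm1 was at 159 and 67.1 CPM in the controls and at 78.2 and 72.7 CPM in the knockdown libraries, which overlap. Ifitm2 was at 258 and 165 CPM against 130 and 141 CPM, apart between groups, at -0.64 on the log2 scale (edgeR adjusted p = 0.182). Without control replicate 2 Ifitm1 was called lower at -1.13 and Ifitm2 at -0.98, and without control replicate 1 they were at 0.17 and -0.28. Ifitm2 shares 48.5% of its 50-base stretches with other annotated genes, mostly with a predicted gene whose exons overlap its own, so its count is less certain than that of Ifitm1 at 6.36%.

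Bst2, Ifi35 and Parp14 lay lower in both knockdown libraries without being called. Bst2, which encodes tetherin, an anchor that holds budding virus on the cell, was at 74.3 and 33.3 CPM in the controls and at 26.2 and 31.1 CPM in the knockdown libraries. Control replicate 2 lay just above the higher knockdown library. The log2 fold change was -0.91 (edgeR adjusted p = 0.21), which was -1.43 and called without control replicate 2 and -0.22 without control replicate 1. Ifi35 was at 5.65 and 2.65 CPM against 2.46 and 2.07 CPM, with a log2 fold change of -0.87 that was -0.23 without control replicate 1. Parp14, an ADP-ribosyltransferase, was at 15.4 and 12.7 CPM against 10.8 and 10.3 CPM (log2 fold change -0.41, edgeR adjusted p = 0.469). Mx1, a dynamin-like antiviral GTPase, had 9 and 17 counts in the controls against 17 and 10.

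**Figure D2:**
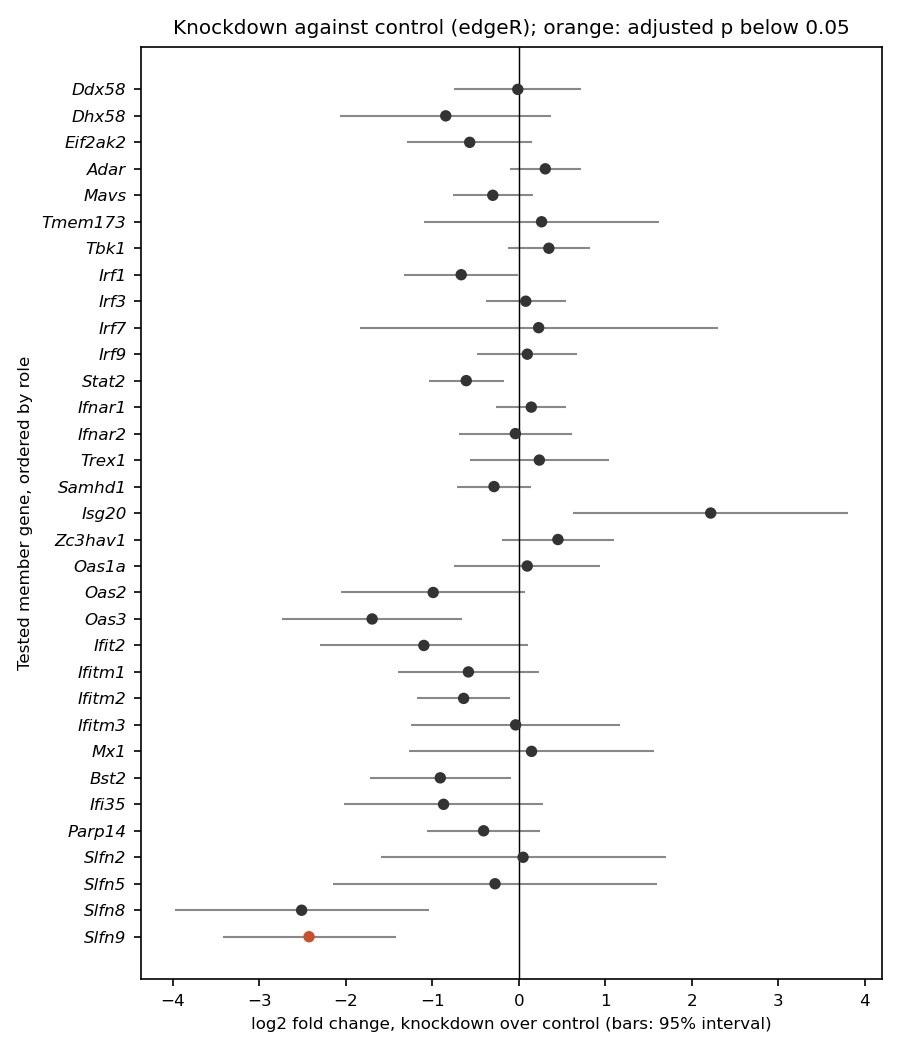
Log2 fold change of each of the 33 tested genes, knockdown over control, as a point with its 95% interval from the edgeR fit. Slfn9, in orange, passed the adjusted threshold at -2.43, and low-count genes such as Irf7 (-1.84 to 2.30) have wide intervals.

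The Schlafen genes held the 1 call. These genes are induced by interferon in many cells, and their products act on cell growth and on RNA. Slfn8 and Slfn9 encode long forms with a helicase-like region. Slfn9 lies on chromosome 11 from 82974316 to 82991830 (mm10) on the minus strand, and Slfn8 is its neighbour, 10295 bases away and on the same strand. Slfn9 had 607 and 296 counts in the controls against 104 and 55, which is 32.1 and 15.4 CPM against 5.44 and 3.34 CPM. Control replicate 1 stood above control replicate 2, and both knockdown libraries lay well below either. From 23.7 ± 11.8 CPM to 4.39 ± 1.48 CPM (SD, n = 2 each), Slfn9 fell by 2.43 on the log2 scale (SE 0.43), which is 5.38-fold (edgeR adjusted p = 0.0438).

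The call of Slfn9 lies close to the threshold. Under 6 of 14 alternatives it was lost, with adjusted p-values up to 0.0613, and without control replicate 1 the log2 fold change was -1.80. In all 14 alternatives Slfn9 stayed lower, from -2.91 to -1.80. Slfn8 was at 2.32 and 1.25 CPM in the controls and at 0.37 and 0.24 CPM in the knockdown libraries, with 7 and 4 counts in the latter. The fit gave -2.51 on the log2 scale (SE 0.64, edgeR adjusted p = 0.0904), so Slfn8 was not called. The 2 genes share sequence: 6.24% of the 50-base stretches of Slfn9 occur in Slfn8 and 8.44% in the pseudogene Slfn10-ps. Of those of Slfn8, 9.82% occur in Slfn9 and 10.7% in Slfn10-ps. Slfn9 had the higher counts in every library, so some reads counted for Slfn8 could belong to Slfn9. The count of Slfn8 is thus uncertain. With the counts of Slfn8 and Slfn9 summed, an alternative chosen after seeing the data, the log2 fold change was -2.44 with an edgeR adjusted p of 0.0427. Over all libraries Slfn9 had 1062 counts and Slfn8 79, so the sum mainly repeats the value of Slfn9.

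Other Schlafen genes of the same cluster were not called. Slfn2, a short form needed for T cell quiescence, was at 0.53 and 2.44 CPM in the controls and at 1.26 and 1.82 CPM in the knockdown libraries. Slfn5, the next gene to Slfn9 on the other side, was at 0.48 and 1.504 CPM against 1.31 and 0.30 CPM. Both overlapped between groups. Slfn4 had 22 and 1 counts in the controls against 49 and 62 (log2 fold change 2.37, edgeR adjusted p = 0.209), and Slfn3 was at 5.55 and 1.504 CPM against 6.70 and 3.10 CPM. The difference between Slfn9 and its neighbours was not tested.

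The sequences just upstream of Slfn9 and Slfn8 are shown because Slfn9 was the gene called, Slfn8 is its annotated neighbour and each holds a match to the ISRE core. They are from RefSeq (GRCm38.p6, minus strand), 70 bases each, at chr11:82991836-82991905 and chr11:83020819-83020888. The capitals mark the match, here on the strand opposite to the gene.
Slfn9: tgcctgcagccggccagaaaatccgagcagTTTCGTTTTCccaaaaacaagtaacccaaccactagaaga
Slfn8: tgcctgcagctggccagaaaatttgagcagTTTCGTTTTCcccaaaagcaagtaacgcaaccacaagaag
In a global alignment 63 of 71 columns were identical (88.7%). The match starts 45 bases before the transcript start of Slfn9 and 48 bases before that of Slfn8.

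The ISRE core was searched as GAAA, any 2 bases and GAAA, and the GAS core, another element of interferon-induced promoters, as TTCNNNGAA, both on either strand. The windows ran from 250 bases before to 50 after each RefSeq transcript start. Windows were found for 35 of the 43 genes. Of these 16 held the ISRE core (45.7%), beside 3.99% of all 27025 genes with windows, and 12 held the GAS core (34.3%), beside 9.55%. Matches of the 2 motifs overlapped in 24 of all 32851 windows. By window, 38.6% of 44 held the ISRE core against 3.44% of all.

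Further upstream stretches are given for Oas3, Stat2 and Bst2, which lay lower in both knockdown libraries without a call. Those of Isg15 and Ifit1, which were at or near 0, follow. Only stretches with an ISRE core match were kept, so each one printed holds a match by selection. The stretches lie at chr5:120777695-120777764, chr10:128270248-128270315, chr8:71537557-71537632, chr4:156200845-156200926 and chr19:34640755-34640824 in that order (GRCm38.p6), with Stat2 and Ifit1 on the plus strand. Capitals mark ISRE core matches, which run together where they overlap.
Oas3: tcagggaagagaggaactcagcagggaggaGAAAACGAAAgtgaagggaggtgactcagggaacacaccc
Stat2: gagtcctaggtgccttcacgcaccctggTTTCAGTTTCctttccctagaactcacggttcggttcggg
Bst2: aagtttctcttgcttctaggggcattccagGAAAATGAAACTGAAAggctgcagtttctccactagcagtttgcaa
Isg15: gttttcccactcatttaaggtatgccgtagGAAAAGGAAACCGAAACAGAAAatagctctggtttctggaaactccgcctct
Ifit1: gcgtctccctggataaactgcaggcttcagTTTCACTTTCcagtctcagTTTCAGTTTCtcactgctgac
Isg15 holds 3 overlapping matches and Ifit1 holds 2 separate ones, while their mRNAs had 0 and 13 counts over all libraries. A match is a description of letters and does not show a bound site.

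**Figure D3:**
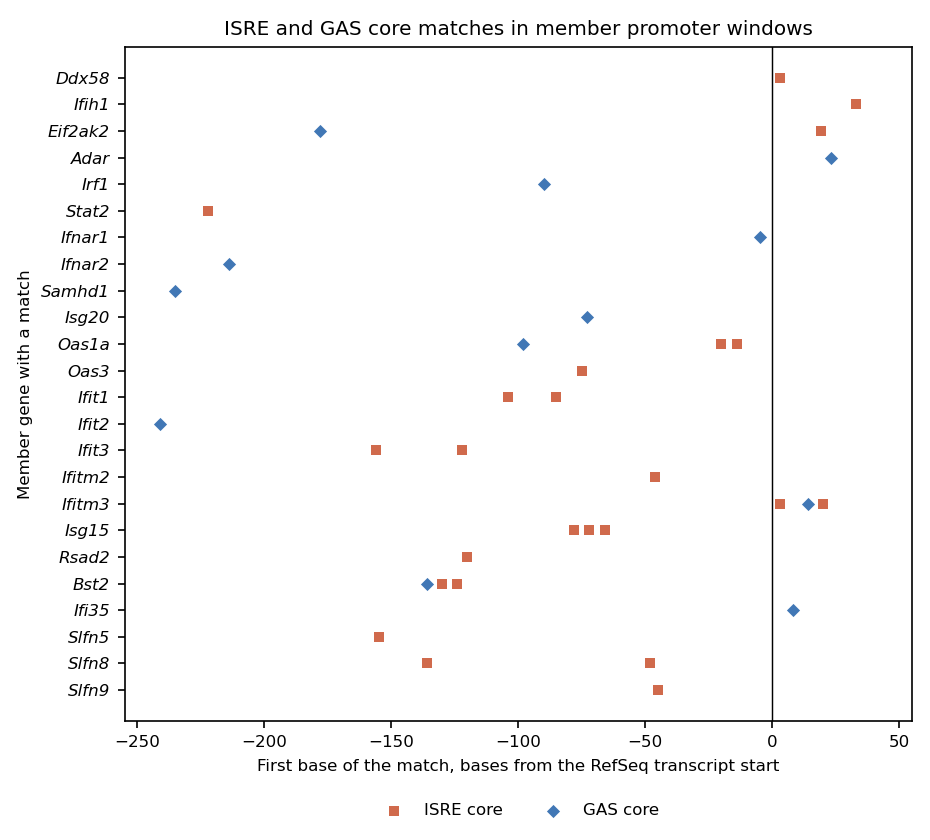
First base of each ISRE core (squares) and GAS core (diamonds) match in the windows, in bases from the RefSeq transcript start. The matches of Slfn9 and one of Slfn8 sit at 45 and 48 bases before the start, and the 2 squares of Slfn8 are 1 site seen from 2 annotated starts.

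Tested genes with and without the ISRE core were set side by side without a test. Of 11 tested genes with a match, 6 were lower in both knockdown libraries, 0 were higher and 5 overlapped, with a median log2 fold change of -0.61. Slfn8, among the 6, passed the filter through the controls alone, so it could hardly enter as anything but lower. Its upstream stretch is 88.7% identical to that of Slfn9, also among the 6, so they are not separate cases. Of 17 without a match, 5 were lower, 6 were higher and 6 overlapped, with a median of 0.08. Over all genes the order was the reverse: of 401 tested genes with a match 21.9% were lower in both knockdown libraries and 29.4% higher, against 24.9% and 27.0% of 11438 without. For the GAS core the medians were -0.16 over 12 tested genes with a match and -0.14 over 16 without.

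The controls differed from each other in many of these genes. In 10 of the 33 tested genes control replicate 1 was at least 1.5 times control replicate 2, and in 7 it was the reverse, beside 11.4% and 17.7% of all tested genes. Control replicate 1 was the higher in all 3 IFITM genes, in Ddx58, Bst2, Ifi35, Tmem173 and Irf1, and in Slfn8 and Slfn9. Control replicate 2 was the higher in Eif2ak2, Dhx58, Irf7, Isg20, Mx1, Slfn2 and Slfn5. For Ifitm3 the ratio between controls was 4.18, larger than any fold change between groups among these genes except those of Slfn8, Slfn9 and Isg20.

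**Figure D4:**
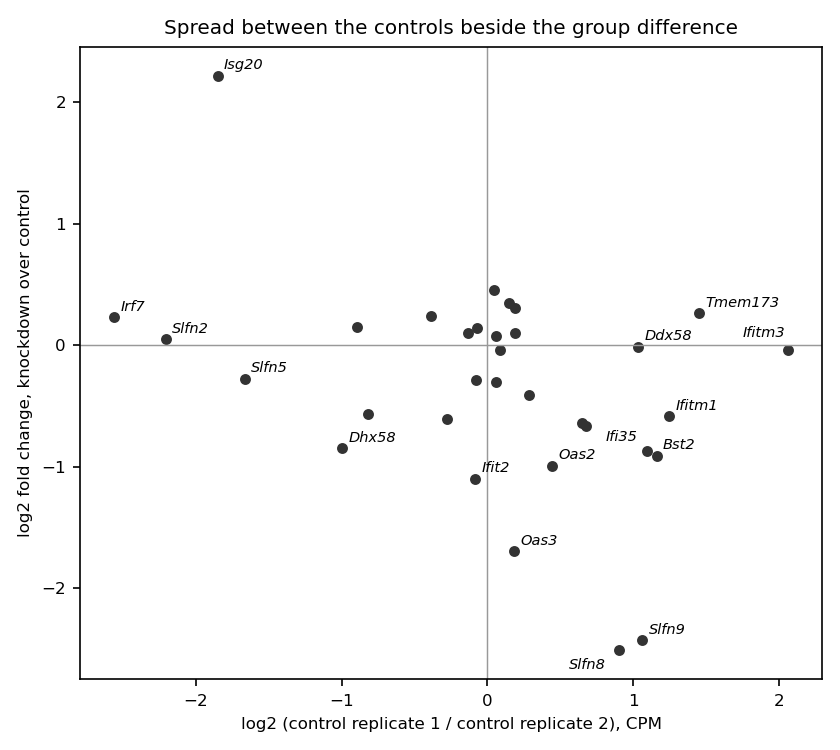
Log2 ratio of control replicate 1 to control replicate 2 on the x axis and log2 fold change between groups on the y axis, for the 33 tested genes. Ifitm3 lies far to the right at a fold change near 0, and Slfn8 and Slfn9 lie lowest.

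A wider set of 145 pathway genes held 1 call, Tap1. Of these genes 143 were in the table and 117 were tested, with a median log2 fold change of 0.07. Tap1 rose and 0 fell in edgeR's quasi-likelihood test (3 rose and 3 fell with DESeq2). Over all 16209 tested genes the quasi-likelihood test called 1.43%, and DESeq2 called 1107 genes. At an unadjusted p below 0.05 in the quasi-likelihood test, 9 of the 117 were higher and 11 lower. That is 17.1%, beside 19.6% of all tested genes. Tap1 encodes a subunit of the transporter that loads peptides for MHC class I and lies on chromosome 17 from 34187556 to 34197225. It was at 5.65 and 3.63 CPM in the controls and at 19.8 and 22.6 CPM in the knockdown libraries, apart by more than either spread. The log2 fold change of 2.19 (SE 0.33) is a 4.56-fold rise (edgeR adjusted p = 0.0288). Tap1 was called in all 14 alternatives. Psmb9, its divergent neighbour that encodes an immunoproteasome subunit, was at 1.69 and 1.92 CPM against 1.62 and 0.97 CPM. Psmb10, another immunoproteasome gene and named after its values were seen, was at 32.1 and 24.8 CPM against 12.1 and 11.9 CPM, and missed the threshold at an edgeR adjusted p of 0.0566. The abundant genes of this list were not called, with log2 fold changes of 0.10 for Calr, 0.05 for Pdia3 and -0.19 for H2-K1.

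In the other 4 pathway lists edgeR's quasi-likelihood test called 0 genes, and DESeq2 called 4 (Apobec3, Rela, Ripk1 and Socs3, the middle pair named after their values were seen). Adaptors and kinases of sensing centred on a median of 0.16 (log2 fold change, 23 tested). Their most abundant genes Trim25, Tax1bp1 and Riok3 were at 0.16, 0.34 and 0.00. In this list 18 genes lay above 0, and in the next lists 8 of 23, 12 of 20 and 20 of 35. Over all tested genes 8179 of 16209 did. Genes that bind, edit or process double-stranded RNA had a median of -0.16 over 23, with Ddx3x and Dhx9 at -0.32 and 0.11. Interferon genes and JAK-STAT signalling had a median of 0.10 over 20. In that list Socs3, a feedback inhibitor, was at 273 and 261 CPM in the controls and at 192 and 162 CPM in the knockdown libraries (edgeR adjusted p = 0.121), and Stat3 and Ptpn11 were at log2 fold changes of 0.36 and 0.06. Further interferon-stimulated genes had a median of 0.09 over 35. Among these, Apobec3, a cytidine deaminase that restricts retroelements, was at 164 and 125 CPM against 74.4 and 84.7 CPM, at -0.86 on the log2 scale (edgeR adjusted p = 0.0737, and called under 5 of 14 alternatives). Pml and Daxx, which meet in nuclear bodies, were at 0.43 and 0.30.

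**Figure D5:**
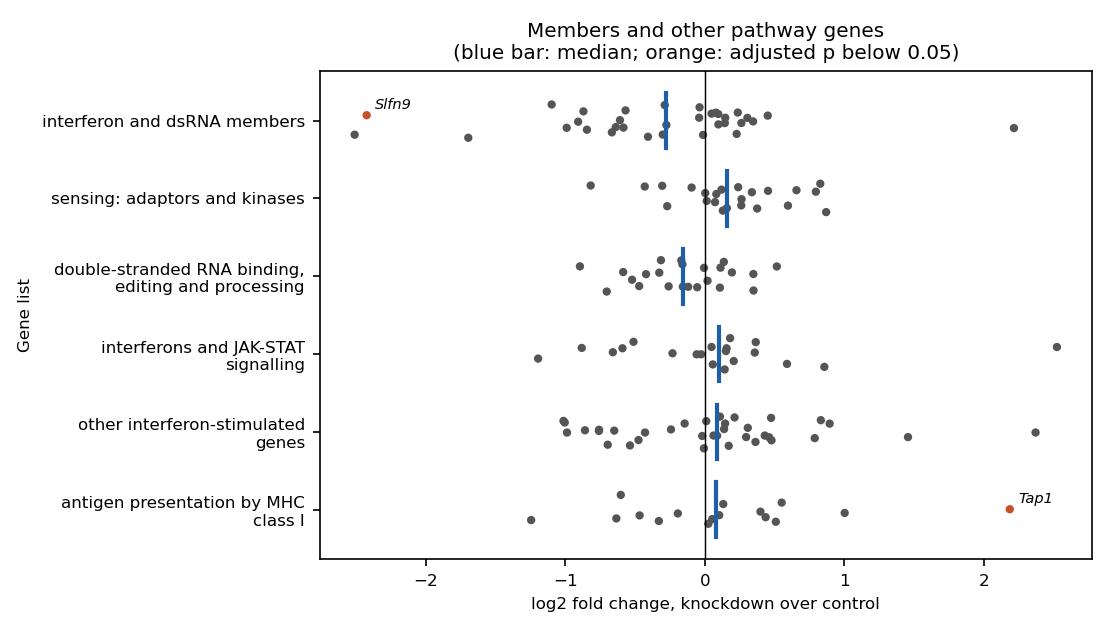
Log2 fold changes of the 33 tested genes described here and of the 5 wider pathway lists, with 1 point per gene and a blue bar at each median. Slfn9 at -2.43 and Tap1 at 2.19 are the called genes, and the medians of the lists lie between -0.28 and 0.16.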

How the data were processed

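A single table of 4 libraries was deposited, and its values are raw counts of reads by gene. cutadapt, HISAT2, featureCounts and the mm10 build are named per the submitters' processing notes. Their versions, the annotation, the strand setting and the handling of multi-mapping reads: not given in the sources used here. Per the labels' protocols, libraries were made with an mRNA kit. After 92 spike-in rows were left out, 35976 gene rows remained, and filterByExpr of edgeR 4.0.16 (R 4.3.3) kept 16209. After TMM scaling, edgeR's quasi-likelihood F-test was run with group as the only term, with Benjamini-Hochberg adjustment over all tested genes. Standard errors were taken as the absolute log2 difference over the root of F, and 95% intervals use the t quantile at the test's degrees of freedom. The procedure was tested on simulated data that had less spread between libraries than the data here.

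The genes and lists were chosen with earlier results of these data known. Every listed gene is described. From each wider pathway list the called genes and the 3 most abundant tested genes are named, and any other is marked or serves as a neighbour. One gene that this rule names is not reported here. Symbols, positions and promoter windows came from RefSeq GRCm38.p6, with 42 symbols matched directly and 1 by a synonym. Exon lengths, overlaps and shared 50-base stretches came from GENCODE M21. Alternatives were 3 scalings, 2 filters, DESeq2 1.42.0, limma-voom (limma 3.58.1), the likelihood ratio test, a replicate block, leaving out each library and thinning to the shallowest.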

Additional observations from a re-analysis of the deposited data

How the results depend on the processing

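With 2 libraries a group the spread is poorly known, and 12 of the 43 genes stayed under 1 CPM, where depth limits what can be seen. Of the values of the 33 genes under alternatives, 415 kept direction and side of the threshold, 13 became called, 6 lost the call and 28 changed sign, 1 of them (Ifitm3) also becoming called. The cause of these changes was not tested, except that fewer genes or libraries enter some fits.

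Genes called lower among the 33 (1) became 0 with upper quartile scaling, library size only, limma-voom and thinning, 2 with DESeq2, 3 with the likelihood ratio test and 5 with no filter. Genes called higher (0) became 1 with no filter and with the likelihood ratio test. Leaving out each library gave 0 to 4 lower and 0 to 1 higher. Slfn9 without a call was at -2.45, -2.36, -2.35 and -2.37 for upper quartile scaling, library size only, limma-voom and thinning. It also lost its call without control replicate 1 at -1.80 and without knockdown replicate 2 at -2.12.
Over all genes, 142 higher and 90 lower calls became 996 and 721 with no filter, 617 and 490 with DESeq2, 796 and 514 with the likelihood ratio test and 428 and 228 with the replicate block, and 57 lower with library size only. Leaving out libraries gave 108 to 389 higher and 45 to 198 lower. Whether the numbers 1 and 2 mark a shared culture or day is not stated. Deviations of same-numbered libraries correlated at -0.06, which cannot settle that. With the replicate block Slfn9 and Tap1 kept their calls.
The median over tested genes of the 43 was -0.056 with no filter, over 41 genes. Without single libraries, over 34 or 35 genes, it lay between -0.30 and -0.23. Wider pathway calls (1 higher, 0 lower) became 4 and 2 with no filter, 3 and 3 with DESeq2, 2 and 2 with the likelihood ratio test, and 2 lower with the block; without single libraries they were 1 to 3 and 0 to 2. Their median was 0.034 with upper quartile scaling and 0.12 with library size only, and -0.016 to 0.060 without single libraries.
Signs changed for uncalled genes. With library size only Ddx58 was at 0.052, Ifnar2 at 0.010 and Ifitm3 at 0.037. With limma-voom Ddx58 was at 0.076 and Ifitm3 at 0.30, and with the replicate block at 0.069 and 0.29. Thinned, Slfn2 was at -0.025. Riok3 was at -0.019, -0.030, -0.013, -0.019, -0.004 and -0.003 with size factors, upper quartile scaling, no filter, DESeq2, limma-voom and the block.
Without single libraries the ranges were -0.49 to 0.59 for Ddx58, -0.53 to 1.90 for Irf7, -0.14 to 0.048 for Ifnar2, -1.13 to 0.17 for Ifitm1, -0.78 to 1.33 for Ifitm3, -0.23 to 0.60 for Mx1, -0.67 to 1.48 for Slfn2, -0.10 to 0.30 for Dhx9, -0.30 to 0.46 for Pdia3, -0.34 to 1.16 for Tmem173, -0.002 to 0.11 for Irf3, -0.30 to 0.40 for Oas1a, -1.68 to 0.73 for Slfn5, -0.14 to 0.13 for Riok3, -0.002 to 0.086 for Ptpn11, -0.035 to 0.81 for Zc3hav1, -0.012 to 0.31 for Trim25 and -0.006 to 0.20 for Calr.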
